A study of Equus asinus with 6 samples.

Results

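Adipokines are signalling proteins released by fat cells, and the transcripts of 5 of them (ADIPOQ, LEP, APLN, RBP4 and NAMPT) and of 4 of their receptors (ADIPOR1, ADIPOR2, LEPR and APLNR) were followed in longissimus dorsi, the long back muscle, of Guangling donkeys. These 9 genes were chosen by name, with earlier results of these data known, from a table of 20873 genes. All 9 were listed, and all 9 passed the filter on low counts that left 15933 genes for testing. The 6 RNA libraries came from animals 24 months old. They fall into 3 labelled high (H1, H2 and H3) and 3 labelled low (L1, L2 and L3) in intramuscular fat (IMF), the fat lodged among the fibres of a muscle. All 6 share breed, age and tissue, and the labels name no treatment. The labels do not say whether each library came from its own animal, and the p-values below rest on library-to-library spread, which may be technical. The comparison asked how the messages of fat hormones and of their receptors differ between muscle of high and low fat content.

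Adiponectin (ADIPOQ) and leptin (LEP) are made mainly by fat cells. Adiponectin acts on muscle through ADIPOR1 and ADIPOR2 to promote fatty acid oxidation, and leptin acts through LEPR and the JAK2-STAT3 pathway to report the size of the fat stores. Apelin (APLN) is a short peptide released by fat, vessel and muscle cells that binds APLNR, a G protein-coupled receptor abundant on endothelium. RBP4 carries retinol in blood, and NAMPT (visfatin) makes the precursor of NAD inside cells and is also secreted.

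The libraries held 39052998 to 47494157 assigned reads. Levels are read counts scaled to a common library size (CPM), after adjustment of the library sizes by the trimmed mean of M-values (TMM), and means are given ± SD with n = 3 libraries. Skeletal muscle markers were all present, with a summed level of 114500 to 189300 CPM in high and 147500 to 194800 in low IMF libraries. Of 16 adipocyte markers, 15 were listed and 12 tested, 7 with a positive and 5 with a negative log2 fold. At an unadjusted edgeR p under 0.05, 2 of the 12 were higher in high IMF and 0 lower, beside 4.53% and 2.74% of all genes. The DESeq2 Wald test called 1 as higher, CIDEA (adjusted p = 0.044), beside 0.68% of its genes. The summed level of the listed markers was 1547 to 2376 CPM in high and 1852 to 2171 in low IMF libraries. GPD1, which muscle also expresses, was the largest entry in each library. ADRB3, PCK1 and ACVR1C were at 0 reads in at least 1 library. PLIN1, the coat protein of the fat cell's lipid droplet, was listed in every library. It measured 28.6, 108 and 7.53 CPM in H1 to H3 and 1.56, 20.9 and 15.5 in L1 to L3. In bulk muscle, fewer fat cells and less RNA per fat cell cannot be told apart. L2 and L3 were closer to each other (chi-square per degree of freedom 7.42 over genes) than any other pair of 1 group (181.1 to 526.7) but differed by more than sampling noise, and both were kept.

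APLN and LEPR were the 2 genes of the 9 whose groups did not overlap. The mean level of APLN was 27.4 ± 9.26 CPM in H1 to H3 and 9.3 ± 0.56 in L1 to L3, and that of LEPR was 6.18 ± 2.83 and 19.2 ± 6.21 CPM. Groups without overlap were found for 13% of all genes tested, in the direction of APLN for 6.86% and in that of LEPR for 6.1%. With edgeR's quasi-likelihood test, 0 of the 9 genes passed an adjusted p of 0.05, as did 0% of all genes, and limma-voom called 0 as well. At an unadjusted p under 0.05 edgeR had 2 of the 9, APLN and LEPR, beside 7.27% of all genes. The DESeq2 Wald test called this pair too, 1 higher (as 0.68% of the genes it tested) and 1 lower (as 0.477%), beside 1.16% called in all. The authors' deposited table called both as well, beside 1.15% of its genes. Log2 folds (high minus low IMF) were positive for 4 of the 9, beside 51.2% of all genes, and their median was -0.04, beside 0.01 for all genes tested.

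**Figure D1:**
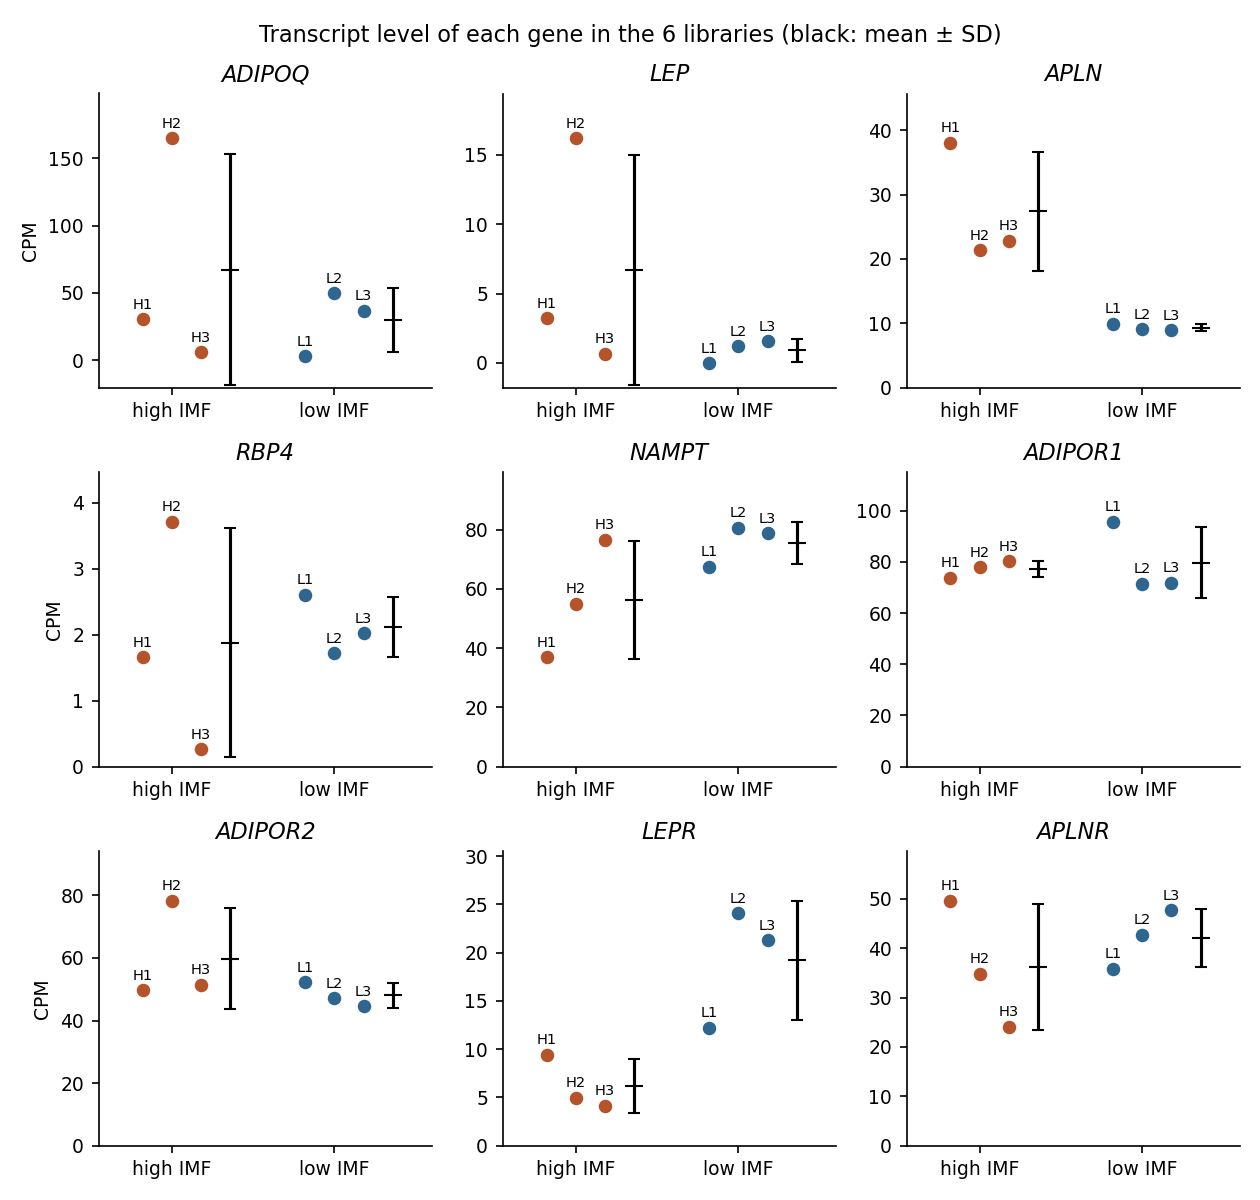
Each panel plots the level of 1 gene (CPM, vertical axis from 0 unless the SD bar runs below it) in the 3 high IMF (H1 to H3) and 3 low IMF (L1 to L3) libraries, with the mean and SD in black. The groups are apart for APLN (higher in high IMF) and LEPR (lower), while ADIPOQ and LEP are set by H2, at 165 and 16.2 CPM.

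ADIPOQ, a hormone made almost wholly by fat cells, measured 30.3, 165 and 5.96 CPM in H1 to H3. The low IMF libraries measured 3.02, 49.7 and 36.6 CPM. The means were 67.1 ± 85.7 and 29.8 ± 24.1 CPM, and the groups overlapped, since H3 lay below L2 and L3. H2 held 82% of the summed level of the high libraries. The log2 fold of 1.17 ± 1.24 (SE) had an edgeR adjusted p of 0.919. Leaving out H2 turned it to -0.72.

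LEP measured 3.25, 16.2 and 0.666 CPM in H1 to H3 and 0, 1.21 and 1.56 CPM in L1 to L3. L1 had 0 LEP reads, which allows a level of up to 0.0625 CPM (3 reads, counting error only). H3 again lay below L2 and L3. The log2 fold was 2.87 ± 1.43 (SE; edgeR adjusted p = 0.752) and positive without each library in turn. It was 1.08 without H2, which held 80.5% of the high group's level, and 2.28 without L1.

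Across the 6 libraries ADIPOQ, LEP and the fat cell gene PLIN1 were all highest in H2 and lowest in L1. They did not order the other libraries alike. ADIPOQ was lower in H1 (30.3 CPM) than in L2 (49.7) and L3 (36.6). PLIN1 was higher in H1 (28.6 CPM) than in L2 (20.9) and L3 (15.5). The genes of the adipocyte list did not share 1 pattern. CIDEC, CIDEA and LIPE were also highest in H2 and lowest in L1, whereas PLIN4 (345.3 CPM), FABP4 (128.7 CPM) and AQP7 (172.0 CPM) were highest in L1, and PLIN4 was lowest in H2 (199.5 CPM). L1 itself had 1.56 CPM of PLIN1 and 0.563 CPM of CIDEC. Which cells gave the PLIN4, FABP4 and AQP7 transcripts was not tested, nor was the part of fat cell number in these differences. Ratios of reads within a library do not depend on the scaling, and 4 of them were compared by exact permutation, two-sided, where 3 against 3 libraries cannot give a p below 0.1.

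The share of LEP among LEP and ADIPOQ reads was alike in the 3 high IMF libraries although their totals ranged from 229 to 9666 reads. LEP made up 9.69% of these reads in H1 (95% Clopper-Pearson interval 8.25 to 11.3%), 8.93% in H2 (8.37 to 9.51%) and 10.04% in H3 (6.47 to 14.7%). In low IMF muscle it was 2.38% in L2 (1.77 to 3.12%) and 4.07% in L3 (3.15 to 5.17%). L1 had 0 LEP reads of 145 (0 to 2.51% by the same interval, and up to 2.07% by the limit of 3 reads used for its level). All 3 high libraries lay above all 3 low libraries, and no interval of a high library reached an interval of a low one; the intervals cover counting error only. As LEP reads per ADIPOQ read the ratio was 0.107, 0.098 and 0.112 against 0, 0.0244 and 0.0425. With 0.5 reads added to both counts, the mean log2 ratio was -3.23 ± 0.11 in high and -6.03 ± 1.91 in low IMF muscle. The exact permutation p was 0.1, the smallest this design allows, and 0.2 adjusted over the 4 ratios. The difference of 2.79 on the log2 scale was 1.71 without L1, and 2.74 to 3.53 without each of the other libraries.

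ADIPOQ per PLIN1 read lay the other way. The ratio was 1.06, 1.53 and 0.792 in H1 to H3 and 1.93, 2.38 and 2.37 in L1 to L3, again without overlap (log2 difference -1.03, exact permutation p = 0.1, adjusted p = 0.2). LEP per PLIN1 read was 0.114, 0.15 and 0.0885 against 0, 0.0579 and 0.101, and the groups overlapped (log2 difference 1.77, exact permutation p = 0.2, adjusted p = 0.2). Relative to PLIN1, ADIPOQ was lower in each high IMF library than in each low one, while LEP was not separated. The ratios among LEP, ADIPOQ and PLIN1 share counts and are not independent results. ADIPOQ reads divide LEP in the ratio of LEP to ADIPOQ and are divided by PLIN1 here. A lower ADIPOQ count alone would therefore move these ratios in opposite directions. LEP per PLIN1 read is the product of LEP per ADIPOQ read and ADIPOQ per PLIN1 read, apart from the reads added. PLIN1 was the only gene of the adipocyte list used as a reference. Ratios to the other adipocyte markers, which differed in pattern, were not compared. The LEP per PLIN1 difference was 0.59 without L1.

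**Figure D2:**
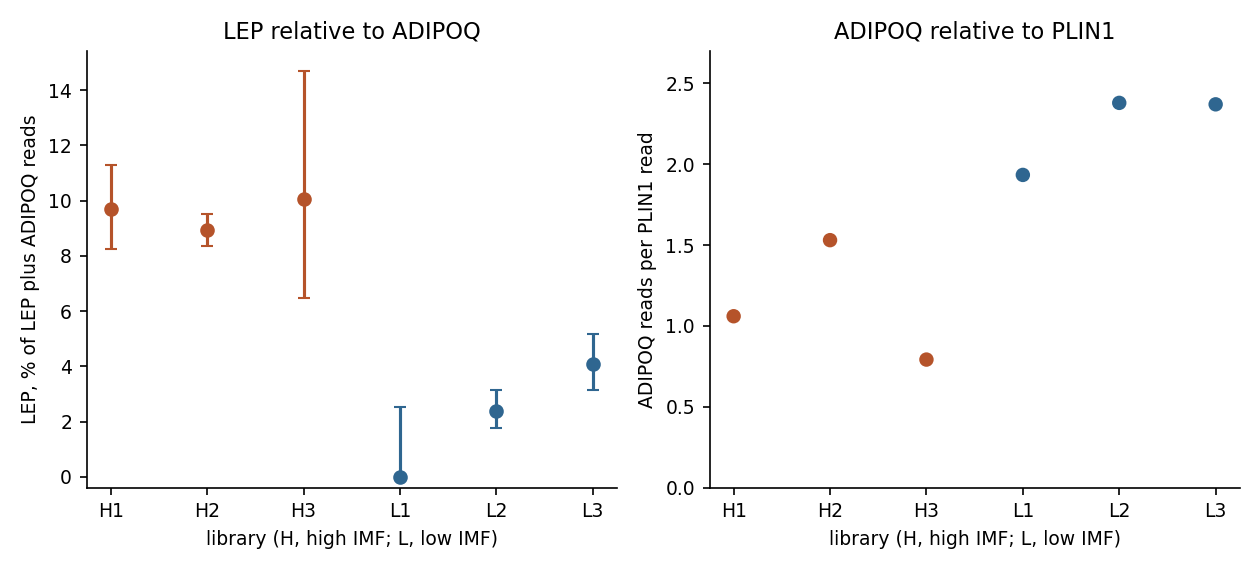
The left panel plots LEP reads as a percent of LEP plus ADIPOQ reads in each library, with 95% Clopper-Pearson intervals, and the right panel plots ADIPOQ reads per PLIN1 read. On the left H1 to H3 sit between 8.93 and 10.04% and L1 to L3 between 0 and 4.07%, and on the right every H library is below every L library.

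APLN measured 38.1, 21.3 and 22.8 CPM in H1 to H3 and 9.94, 9.06 and 8.9 CPM in L1 to L3. The low libraries were nearly equal, and the lowest high library was above all of them. The log2 fold was 1.56 ± 0.25 (SE; 2.95-fold), with an edgeR p of 0.000386, the rank 18 of 15933 genes, and an adjusted p of 0.342. In the authors' deposited table the adjusted p was 9.52e-05. Without each library in turn the log2 fold was 1.23 to 1.7 and the adjusted p 0.142 to 1.

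APLN did not rank the libraries as ADIPOQ did, since it was highest in H1, and ADIPOQ in H2. Markers of blood cells were also highest in H1. The summed level of the macrophage and neutrophil list (12 of 14 genes listed; S100A8 and MPO at 0 in some libraries) was 143.2, 95.17 and 43.29 CPM in H1 to H3, beside 64.69, 60.74 and 55.37 in L1 to L3. The lymphocyte list (11 of 11 listed) summed to 34.94, 20.52 and 17.6 CPM against 19.69, 6.98 and 6.587. Their part in the APLN result was not tested.

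The apelin receptor gene APLNR measured 49.7, 34.9 and 24.1 CPM in H1 to H3 and 35.9, 42.7 and 47.7 in L1 to L3. H1 was the highest and H3 the lowest of the 6, so the groups overlapped fully. The log2 fold was -0.22 ± 0.27 (SE; edgeR adjusted p = 0.935), and 0.0014 without H3. Whether APLN and APLNR differ in their folds was not tested. Endothelial markers, of which 14 of 15 were listed and none was at 0, summed to 951.2 to 1338 CPM in high and 1442 to 1563 in low IMF libraries, with 1 of 14 log2 folds positive, beside 51.2% of all genes. At an unadjusted p under 0.05, 4 of the 14 were lower, beside 2.74% of all genes.

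LEPR, the leptin receptor gene, measured 9.41, 4.99 and 4.14 CPM in H1 to H3 and 12.2, 24.1 and 21.3 in L1 to L3. Every low library was above every high one, though H1 and L1 were close. LEPR was 3.1-fold higher in low IMF muscle (log2 fold -1.63 ± 0.39, SE), with an edgeR p of 0.00366 (rank 104), an adjusted p of 0.51, and an adjusted p of 0.00898 in the authors' deposited table. Without each library in turn the log2 fold was -2.08 to -1.42 and the edgeR adjusted p 0.22 to 1. The log2 folds of the hormone and its receptor had opposite signs, 2.87 for LEP and -1.63 for LEPR.

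LEPROT, whose gene overlaps that of LEPR in human and which limits the receptor's display at the cell surface, measured 32.3, 27.5 and 17.0 CPM in H1 to H3 and 52.3, 33.7 and 35.3 in L1 to L3. Its groups did not overlap either (log2 fold -0.66 ± 0.28, SE; edgeR adjusted p = 0.689). How reads shared by overlapping genes were counted is not given in the sources used here, so the 2 genes are uncertain with respect to each other. Endothelial cells also carry LEPR, and the endothelial marker sums given above were lower in all 3 high IMF libraries; their part in the LEPR result was not tested.

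**Figure D3:**
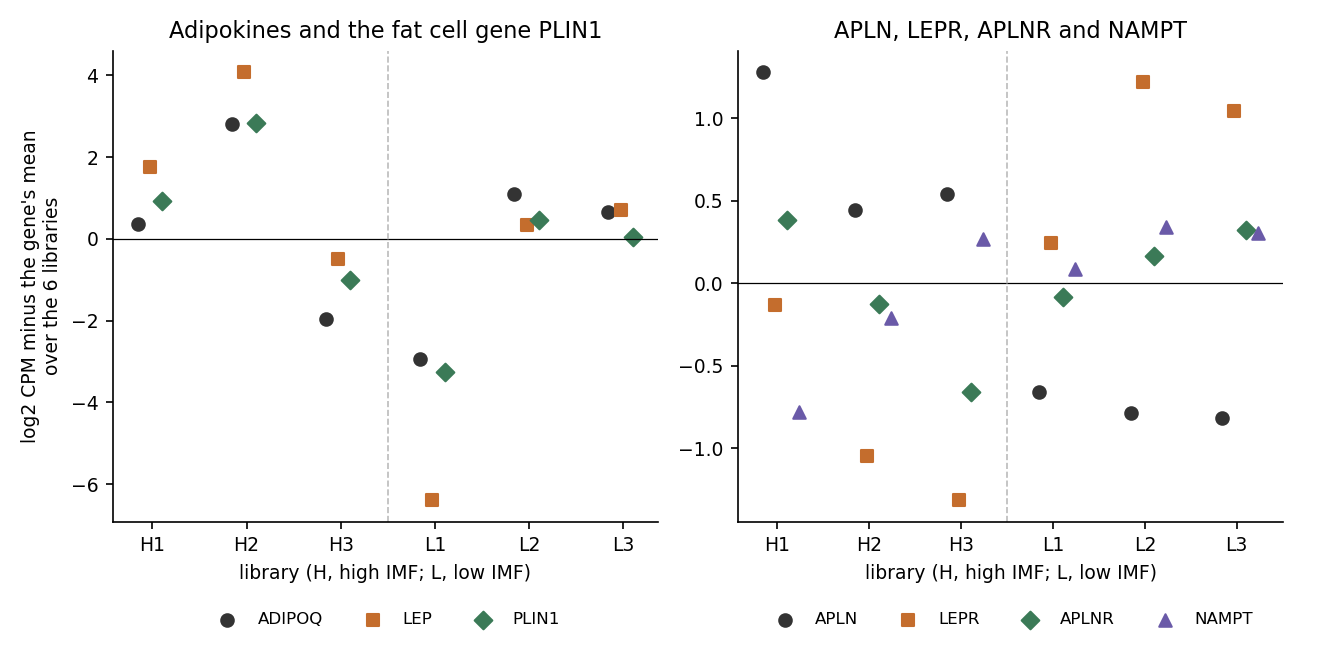
Points show centred log2 CPM, each gene's mean over all 6 being set to 0 (0.5 reads added at the mean library size) for ADIPOQ, LEP and PLIN1 on the left and for APLN, LEPR, APLNR and NAMPT on the right, with high IMF libraries left of the dashed line. The left genes share their high point in H2 (2.82 for ADIPOQ, 4.08 for LEP) and low point in L1, whereas APLN is above 0 and LEPR below 0 in all H libraries.

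ADIPOR1, the adiponectin receptor typical of muscle, measured 73.8, 77.9 and 80.2 CPM in H1 to H3 and 95.8, 71.5 and 71.8 in L1 to L3, a log2 fold of -0.04 ± 0.17 (SE; edgeR adjusted p = 0.977). Its highest library was only 1.34 times its lowest. That fold turned to 0.08 on library size alone, a scaling under which the median log2 fold over all genes was 0.15 in place of 0.01.

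ADIPOR2 measured 49.6, 78.4 and 51.4 CPM in H1 to H3 and 52.3, 47.2 and 44.5 in L1 to L3. The log2 fold was 0.32 ± 0.21 (SE; edgeR adjusted p = 0.851) and rested on H2, without which it was 0.06. In that library, which also had the most ADIPOQ, ADIPOR1 and ADIPOR2 reads were about equal (ratio 0.994), and in the other libraries the ratio was 1.49 to 1.83 (log2 difference between groups -0.32, exact permutation p = 0.2, adjusted p = 0.2).

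RBP4 measured 1.66, 3.71 and 0.261 CPM in H1 to H3 and 2.6, 1.72 and 2.02 in L1 to L3. H3 had 9 reads and H2 had 198, so that the high libraries enclosed the low ones. The log2 fold was -0.16 ± 0.77 (SE; edgeR adjusted p = 0.98) and changed sign without H3 (0.34), without L1 (0.01) and on library size alone (0.05). It was -1.14 without H2. RBP4 is made mainly by liver, and the hepatocyte markers (5 of 8 listed; FGB and AHSG at 0 in some libraries) summed to 6.34 to 9.43 CPM in H1 to H3 and 6.08 to 14.0 in L1 to L3.

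NAMPT measured 37.0, 55.1 and 76.6 CPM in H1 to H3 and 67.5, 80.7 and 78.8 in L1 to L3. H3 lay among the low IMF libraries and the other 2 high libraries below them. The log2 fold was -0.43 ± 0.26 (SE; edgeR adjusted p = 0.833). It was -0.72 without H3 (edgeR adjusted p = 0.288) and -0.22 without H1.

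**Figure D4:**
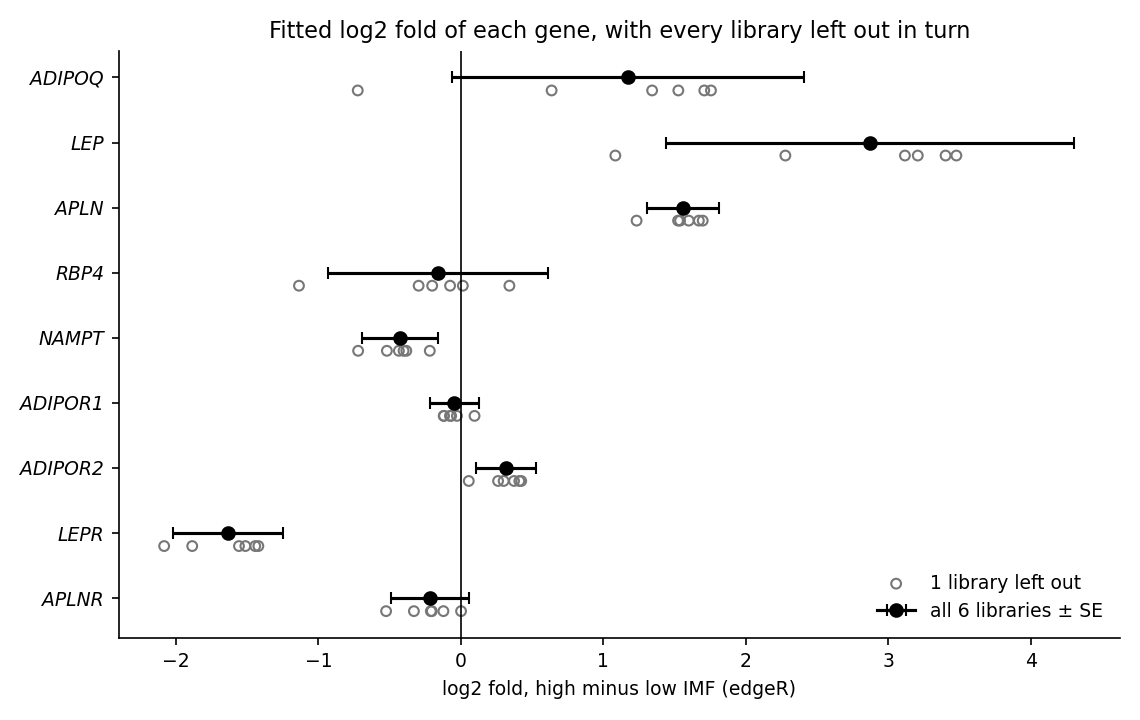
Black points give each gene's fitted log2 fold (high minus low IMF, edgeR) with its SE, and open circles the fold with 1 library left out. All circles of APLN lie between 1.23 and 1.7 and all circles of LEPR between -2.08 and -1.42, while 1 circle of ADIPOQ lies at -0.72.

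On the deposited scale per gene length (FPKM, fragments scaled to gene length and library size), levels of different genes can be compared. Over the 6 libraries ADIPOR1 had a level of 29.0 ± 5.06 FPKM (SD, n = 6) and was above the next gene, NAMPT (14.8 ± 2.62), in 6 of 6 libraries without overlap. ADIPOR2 (12.6 ± 4.02), ADIPOQ (10.4 ± 13.8), APLNR (9.64 ± 2.85), APLN (6.4 ± 4.63), LEPR (3.2 ± 1.89), RBP4 (2.12 ± 1.34) and LEP (1.4 ± 2.33) followed in order of mean FPKM level. From NAMPT downwards, the ranges of each gene and the next overlapped. The mean of ADIPOQ was set by H2, and ADIPOQ was above APLNR in 1 of 6 libraries, with medians of 6.985 and 9.46 FPKM. NAMPT was above ADIPOR2, APLNR above APLN and APLN above LEPR in 4 of 6 libraries each, and ADIPOR2 above ADIPOQ, LEPR above RBP4 and RBP4 above LEP in 5 of 6 each. ADIPOQ ranged from 0.63 FPKM in L1 to 37.58 in H2, the only library in which it was above ADIPOR1 (32.08 FPKM).

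Genes around each hormone were read from 6 lists. In edgeR 0 of their tested members passed the adjusted threshold, and in the DESeq2 run also 0. The counts below use an unadjusted p under 0.05, which 4.53% of all genes reached as higher and 2.74% as lower. Apart from CFD, the genes named are the 4 of smallest edgeR p in each list, a choice that favours groups without overlap. Such groups, above and below, numbered 2 and 0 in adiponectin, 1 and 1 in leptin and 1 and 1 in apelin signalling. There were 2 and 2 in retinol transport, 2 and 1 in NAD synthesis and use, and 1 and 0 among other adipokines. The shares of all genes were 6.86% and 6.1%. In adiponectin signalling 1 of 20 was higher and 0 lower, with a median log2 fold of 0.0003. The higher one, ACACB, which makes the malonyl-CoA that restrains fatty acid oxidation, measured 84.2 ± 15.4 CPM in H1 to H3 and 58.8 ± 7.68 in L1 to L3 (edgeR adjusted p = 0.635). The deacetylase SIRT1 measured 4.7 ± 0.36 and 3.35 ± 0.55 CPM without overlap (edgeR adjusted p = 0.75). The AMPK subunits PRKAG3 and PRKAA2 followed in order of p, with log2 folds of -0.57 (-1.2 without H3, -0.25 without H1) and 0.19.

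Of 14 tested genes of leptin signalling, 1 was higher and 0 lower (median log2 fold 0.08). It was SOCS1, a feedback inhibitor of JAK kinases, at 0.862 ± 0.352 and 0.328 ± 0.053 CPM without overlap (edgeR adjusted p = 0.623). JAK2, the kinase bound to LEPR, measured 34.1, 20.0 and 24.3 CPM in H1 to H3 and 21.1, 19.9 and 18.4 in L1 to L3 (edgeR adjusted p = 0.785), and the adaptor GRB2 had a log2 fold of -0.41. Of 15 tested genes of apelin signalling, 1 was higher and 1 lower (median log2 fold -0.01). ARRB1, an arrestin that binds activated receptors, measured 26.3 ± 12.8 and 14.2 ± 2.76 CPM (edgeR adjusted p = 0.641). GNAI1, an inhibitory G protein subunit through which APLNR can signal, measured 16.1 ± 5.1 and 25.8 ± 3.5 CPM (edgeR adjusted p = 0.639), and both had groups without overlap. KLF2, a transcription factor of endothelium, had a log2 fold of -0.76 (-1.57 without H1, -0.5 without H2). For GNAQ, a G protein subunit, it was -0.2, and the groups of both genes overlapped.

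Of 15 tested genes of retinol transport and response, 1 was higher and 1 lower (median log2 fold -0.05), and they were a pair of retinoic acid receptors. RARA measured 21.5 ± 2.29 CPM in H1 to H3 and 14.7 ± 0.196 in L1 to L3 (edgeR adjusted p = 0.523), and RARG 18.6 ± 1.21 and 26.6 ± 4.05 CPM (edgeR adjusted p = 0.571), both without overlap. RXRB had a log2 fold of -0.38. That of CRABP1 was 1.66 (2.46 without L2, 1.18 without H2), at 0.984 ± 0.47 and 0.313 ± 0.27 CPM. CRABP1 in L1 was at 0.0417 CPM, below the 0.0625 CPM that 3 reads make in that library. In NAD synthesis and use 0 of 17 were higher and 1 was lower (median log2 fold 0.02): NADSYN1, which completes NAD synthesis from nicotinic acid, measured 16.5 ± 0.957 and 23.4 ± 4.17 CPM without overlap (edgeR adjusted p = 0.607). SIRT6, NADK and QPRT came next, with log2 folds of -0.52, 0.34 and -0.75.

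Among 19 tested genes of other adipokines and their receptors 0 were higher and 0 lower, with a median log2 fold of 0.13. APOE measured 225.3 ± 97.4 and 146.3 ± 31.4 CPM (edgeR adjusted p = 0.763). Its groups overlapped, and its log2 fold of 0.62 was 0.19 without H2. METRNL measured 10.7 ± 2.56 and 7.15 ± 2.26 CPM. The chemerin receptor gene CMKLR1 and the matricellular gene FSTL1 had log2 folds of 0.96 and 1.11. The groups of both overlapped, FSTL1 was lower in H3 (24.5 CPM) than in each low library, and without H1 the log2 folds were 0.4 for CMKLR1 and 0.22 for FSTL1. Adipsin (CFD), another product of fat cells, measured 124.5, 192.6 and 69.7 CPM in H1 to H3 and 116.9, 140.9 and 120.7 in L1 to L3, a narrower range than that of ADIPOQ.

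**Figure D5:**
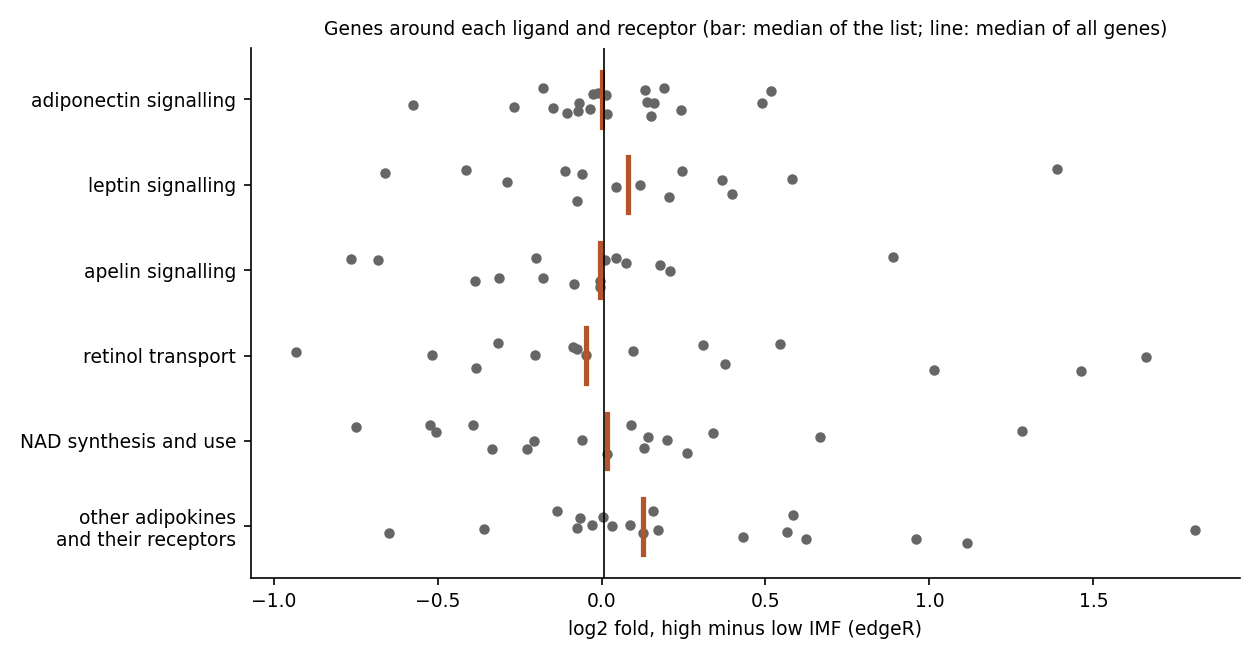
Each point is the edgeR log2 fold (high minus low IMF) of 1 tested gene in 6 lists around the hormones, with the list's median as a bar and the median of all genes as a line. The medians lie between -0.05 and 0.13, beside 0.01 for all genes.

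The genes nearest in pattern were found among 12036 named genes of at least 1 CPM on average, by the root mean square (RMS) difference of mean-centred log2 CPM over the 6 libraries, and are given as a description. Nearest to ADIPOQ, whose own RMS deviation was 1.93, were PRUNE2 (0.38), LOX (0.4), SMOC1 (0.52), TSPAN11 (0.53) and CCBE1 (0.53). Nearest to LEP, whose own RMS deviation was 3.2, were THRSP (1.09), LIF (1.35), PLIN1 (1.46), TUSC5 (1.49) and CEBPA (1.7). Nearest to APLN, whose own RMS deviation was 0.8, were NLRP1 (0.1), MRPS6 (0.14), IRF8 (0.15), RRAD (0.15) and GMFG (0.18). RRAD, a small GTPase of muscle, measured 1090, 450.5 and 502.2 CPM in H1 to H3 and 229, 190.6 and 195.7 in L1 to L3. THRSP, a regulator of fat synthesis, measured 28.0, 150.6 and 8.95 CPM in H1 to H3 and 0.146, 3.37 and 3.09 in L1 to L3, so that, unlike LEP, its groups did not overlap.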

How the data were processed

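For the 6 RNA libraries the submitters' processing notes name HISAT2 and mm9, a mouse build, although the deposited protein annotations are mostly of donkey. The read counter and strand setting: not given in the sources used here. No coordinates are printed. The deposited counts are whole reads per gene, assigned by the authors. The deposited FPKM values, scaled by the authors to gene length and library total, served only to order genes by level. The log2 fold changes and p-values of the authors' deposited table are their own comparison. All 194 genes it calls were also called by the DESeq2 run here, and the members' log2 folds differed by no more than 0.0005; the table adds no independent test. Of the table's genes, 14721 carry a symbol and 876 were named by gene identifier in a RefSeq table of EquAss-T2T_v2.

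Groups and replicate numbers came from the sample titles. Counts were fitted over all genes with edgeR 4.0.16 (R 4.3.3; TMM, filterByExpr, quasi-likelihood F-test, Benjamini-Hochberg, threshold 0.05); rows with a gene identifier but no symbol (0.704% of reads) stayed in. The SE given with an edgeR log2 fold is its absolute value over the square root of the F statistic, not an estimate printed by the model. The code was tested on simulated counts. Ratios were compared by exact permutation; 0.5 was added to both counts where LEP was used, since 1 library had 0 LEP reads. The members and lists were chosen with earlier results of these data known. Genes named from the lists are the 4 of smallest edgeR p in each, and the 5 nearest patterns of ADIPOQ, LEP and APLN. CFD, CIDEC, CIDEA, LIPE, PLIN4, FABP4 and AQP7 were named after their values were seen. Marker lists of adipocytes, endothelium, muscle, blood cells, fibroblasts, smooth muscle and hepatocytes were summed: the fibroblast list had 9 of 10 log2 folds positive, the smooth muscle and pericyte list 2 of 9 and the hepatocyte list 2 of 4. The alternatives were other scalings and filters, the DESeq2 1.42.0 Wald test, limma-voom (limma 3.58.1), a replicate block, L2 and L3 summed, and each library left out.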

Additional observations from a re-analysis of the deposited data

How the results depend on the processing

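APLN stayed positive and LEPR negative with an unadjusted p under 0.05 in all 14 alternatives, and LEP (positive), NAMPT (negative) and ADIPOR2 (positive) also kept their sign in 14 of 14. Members passed the adjusted threshold in the DESeq2 Wald test alone. That test called 194 genes in place of 0 and 2 of the members in place of 0 (APLN, log2 fold 1.55, and LEPR, -1.65). The cause was not tested. Without each library in turn edgeR called 0 to 3 genes, the 3 without H1, and 0 members. Without each library in turn ADIPOQ ranged from -0.72 (without H2) to 1.755, RBP4 from -1.14 to 0.34 (without H3; 0.01 without L1), ADIPOR1 from -0.12 to 0.0959 (without L1) and APLNR from -0.52 to 0.0014 (without H3), so that each turned its sign. RBP4 (0.0484) and ADIPOR1 (0.081) also did on library size only. On library size only, 84.8% of the genes at an unadjusted p under 0.05 were higher in high IMF, in place of 62.3%. Genes at that level numbered 1158, but 2045 without H3, 700 with L2 and L3 summed, 710 without L2 and 755 without L3. Deviations of same-numbered libraries had correlations of 0.185, 0.14 and 0.0132, and those of differently numbered ones -0.214 to 0.2. Being deviations from means of 3 libraries, they cannot decide whether the numbers pair the libraries. With the replicate block edgeR called 0 genes, with 1187 at an unadjusted p under 0.05, and no member changed sign. The 4 ratios, of which those among LEP, ADIPOQ and PLIN1 share counts, kept their direction in every setting run. Among the members, depth limits LEP in L1 (0 reads) and in H3 (23), and RBP4 in H3 (9).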
